A study of Homo sapiens with 8 samples.

Results

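The genes described here encode the subunits of respiratory complexes II, III, IV and V. They were chosen by symbol: SDHA to SDHD, CYC1, every symbol beginning with UQCR, the cytochrome c oxidase subunits beginning with COX4 to COX8, every symbol beginning with ATP5, and the mitochondrially encoded MT-CYB, MT-CO1, MT-CO2, MT-CO3, MT-ATP6 and MT-ATP8. Of 13546 genes in the deposited count table, 52 carried such a symbol. After 3 pseudogenes (COX5BP1, COX6A1P2 and UQCRFS1P1) were set aside, 49 genes remained, 43 encoded in the nucleus and 6 in mitochondrial DNA. Complex II had 4 members, complex III 10 nuclear and 1 mitochondrial, complex IV 11 nuclear and 3 mitochondrial, and complex V 18 nuclear and 2 mitochondrial. A further 7 subunit genes (COX4I2, COX6A2, COX6B2, COX7A1, COX7B2, COX8C and ATP5MGL) are not analysed here. None of the 49 was lost to a filter on low counts.

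RNA came from tumours that grew in nude mice, which lack a thymus and mature T cells, after MDA-MB-231 cells had been injected, a long-used human line from a triple-negative breast cancer. The injected cells were labelled CDK4KO (4 libraries) or CDK4WT (4 libraries). With its cyclin D partners, the kinase CDK4 phosphorylates RB in G1. The labels do not say how CDK4 was disrupted, whether the CDK4KO cells are 1 clone, or whether each tumour came from its own mouse, so p-values measure the spread between these libraries only, which may in part be technical. Libraries held 27840883 to 33617977 counts, and mitochondrially encoded genes made up 4.21 to 4.77% of them. CDK4 mRNA was at 111, 119, 125 and 134 CPM (counts scaled to a fixed library size) in CDK4KO and 115, 107, 116 and 112 CPM in CDK4WT (log2 fold change 0.12 ± 0.07 SE, edgeR adjusted p = 0.477), so the transcript itself does not tell the genotypes apart and the labels are used as given. CDK4KO replicate 1 stood apart from the other 7 libraries on the second principal component. Summed over their lists, markers of the tumour cells were at 9519 to 13047 CPM in CDK4KO and 10871 to 13461 CPM in CDK4WT (6 of 6 markers measured). Of these, CD44 was lower in CDK4KO at an unadjusted p under 0.05 (log2 fold change -0.19 ± 0.08, edgeR adjusted p = 0.313). Skeletal muscle, a tissue rich in mitochondria, had 2 of 10 markers in the table, at 3.96 to 8.57 CPM in CDK4KO and 6.85 to 26.2 CPM in CDK4WT. Both were lower in CDK4KO at an unadjusted p under 0.05: DES (log2 fold change -1.33 ± 0.36, edgeR adjusted p = 0.186) and ACTA1 (-1.21 ± 0.41, edgeR adjusted p = 0.278). Their part in the members' differences was not tested.

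The respiratory chain carries electrons from nutrients to oxygen in the inner mitochondrial membrane. Complex II oxidises succinate and reduces ubiquinone, complex III passes electrons from ubiquinol to cytochrome c, complex IV reduces oxygen with them, and complex V, the ATP synthase, spends the proton gradient built by the chain on making ATP. Complex II is encoded wholly in the nucleus, whereas complexes III, IV and V combine nuclear subunits made in the cytosol with a catalytic or membrane core made inside the organelle from mitochondrial DNA. Many cancer cells, MDA-MB-231 among them, ferment glucose heavily while keeping these complexes.

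No member passed the test over all genes. With p-values adjusted over all 13546 genes (Benjamini-Hochberg), edgeR's quasi-likelihood test called 0 of the 49 members at an adjusted p under 0.05, where it called 8 genes (0.0591%) in all. The smallest adjusted p among members was 0.190, for COX7B. At an unadjusted p under 0.05, 5 members (10.2%) were lower in CDK4KO, against 6.33% of all genes, and 0 were higher, against 6.64% of all genes. The 5 were COX7B, COX7C and COX5A of complex IV, SDHC of complex II and MT-ATP8 of complex V. The same 5 were the members whose genotypes did not overlap, all 4 CDK4KO libraries lying below all 4 CDK4WT libraries, which held in that direction for 3.81% of all genes and in the opposite direction for 0 members and 3.87% of all genes. Most fold changes were small and negative: 38 of 49 were below 0, with a median log2 fold change of -0.06, against 48.8% below 0 and a median of 0.0037 over all genes. DESeq2 called 1 member, COX7B (adjusted p = 0.0367), where it called 2.33% of all genes, and limma voom with library quality weights called COX7B (adjusted p = 0.0173) and SDHC (adjusted p = 0.0246), where it called 2.1% of all genes. In bulk tumour RNA, fewer cells of a type and less RNA per cell cannot be told apart.

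**Figure D1:**
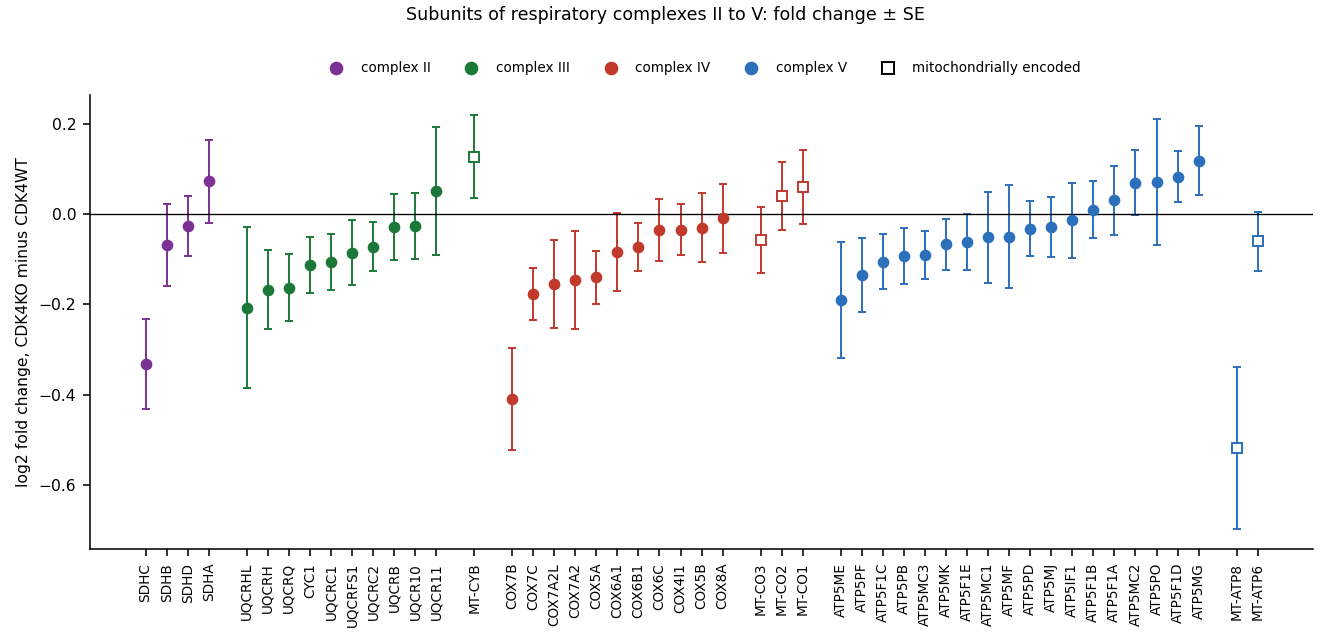
Log2 fold change, CDK4KO minus CDK4WT, of each of the 49 members (y axis), grouped along the x axis by complex and, within it, by genome; filled circles are nuclear genes, open squares mitochondrially encoded genes and bars the SE. All 11 nuclear complex IV members lie below 0, from -0.41 to -0.01, while complex V members lie on both sides and MT-ATP8 is lowest of all at -0.52.

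Complex IV had the most members at an unadjusted p under 0.05, though the complexes differ in size. All 11 of its nuclear members had a fold change below 0, against 48.8% of all genes. Their median was -0.08, and that of nuclear complex III was -0.10. Of the 11, 3 (27.3%) were lower at an unadjusted p under 0.05, against 25.0% of complex II (1 of 4) and 6.33% of all genes. COX7B, a small membrane-spanning subunit, was at 49.3, 36.4, 34.6 and 48.9 CPM in CDK4KO replicates 1 to 4, against 56.6, 56.7, 54.6 and 56.8 CPM in CDK4WT. Every CDK4KO tumour was below every CDK4WT tumour, with replicates 2 and 3 much lower than replicates 1 and 4 (log2 fold change -0.41 ± 0.11, edgeR adjusted p = 0.190). COX7C, another small membrane subunit, was at 105, 103, 94.0 and 108 CPM in CDK4KO and 119, 111, 115 and 118 CPM in CDK4WT (-0.18 ± 0.06, edgeR adjusted p = 0.243). COX5A, which lies on the matrix side of the enzyme, was at 43.3, 45.0, 45.9 and 48.9 CPM in CDK4KO and 49.1, 51.1, 51.2 and 50.6 CPM in CDK4WT (-0.14 ± 0.06, edgeR adjusted p = 0.340). For both of these the gap between the highest CDK4KO tumour and the lowest CDK4WT tumour was narrow.

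**Figure D2:**
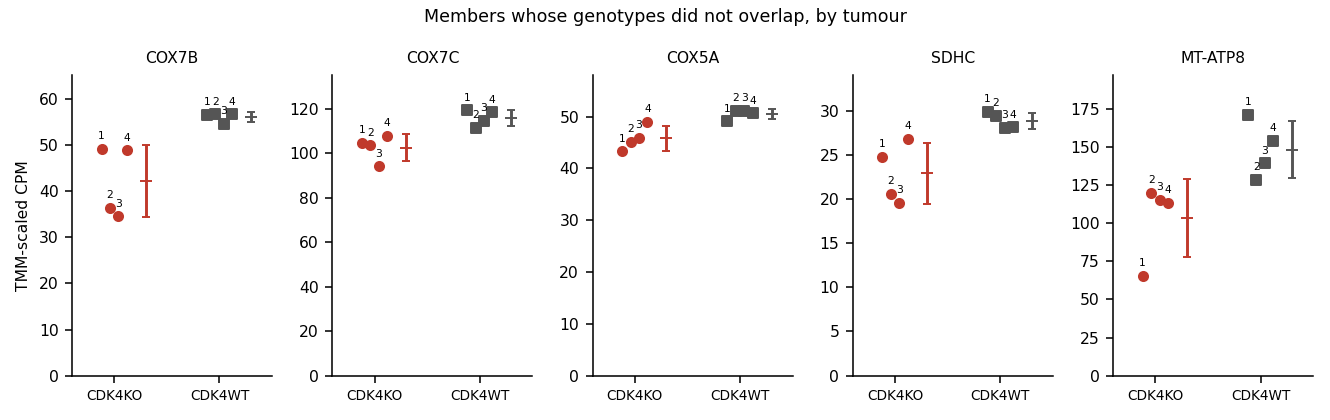
TMM-scaled CPM (y axis, from 0) of the 5 members whose genotypes did not overlap, by genotype; points are tumours numbered by replicate, and the bar beside each group is the mean ± SD (n = 4). COX7B and SDHC are lowest in CDK4KO replicates 2 and 3, at 34.6 to 36.4 and 19.6 to 20.5 CPM, while MT-ATP8 is lowest in CDK4KO replicate 1, at 65.6 CPM.

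The other nuclear complex IV members overlapped between the genotypes. COX7A2L, which joins complex III to complex IV in supercomplexes, was at 76.8, 84.6, 85.4 and 61.5 CPM in CDK4KO and 82.6, 81.3, 86.6 and 93.0 CPM in CDK4WT (-0.16 ± 0.10). Its spread in CDK4KO came mostly from replicate 4. COX7A2, the widely expressed form of subunit VIIa, averaged 77.0 ± 12.4 CPM in CDK4KO and 85.2 ± 8.23 CPM in CDK4WT (SD, n = 4 each; -0.15 ± 0.11), and COX6A1, the widely expressed form of subunit VIa, 32.7 ± 3.99 CPM in CDK4KO and 34.7 ± 1.51 CPM in CDK4WT (-0.08 ± 0.09). COX6B1, which faces the intermembrane space where cytochrome c docks, averaged 70.0 ± 3.12 CPM in CDK4KO and 73.7 ± 0.926 CPM in CDK4WT (-0.07 ± 0.05). COX4I1, the subunit through which ATP regulates the enzyme, averaged 109.9 ± 3.34 CPM in CDK4KO and 113 ± 6.41 CPM in CDK4WT (-0.03 ± 0.06). The muscle forms of VIa and VIIa are among the genes not analysed here.

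Over all 11 nuclear members of complex IV, without the mitochondrially encoded core, summed CPM did not overlap between the genotypes. The other sums by complex and genome overlapped. The sums were 752, 709, 714 and 752 CPM in CDK4KO and 785, 794, 784 and 807 CPM in CDK4WT, or 732 ± 23.2 CPM in CDK4KO and 792 ± 10.6 CPM in CDK4WT (SD, n = 4 each), a difference of -7.65%. The separation was also there with DESeq2's size factors, with library size alone and with scaling on nuclear genes. Without COX7B, COX7C and COX5A the sums were 524 to 555 CPM in CDK4KO and 559.7 to 581 CPM in CDK4WT (-5.03%), still without overlap.

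Because the nuclear complex IV members lay on the same side, promoters of the 3 separated ones are printed beside that of COX5B, whose genotypes overlapped (58.7 CPM in CDK4KO and 60.0 CPM in CDK4WT, -0.03 ± 0.08). COX5B is one of the classical targets of the ETS factor GABP, also called NRF-2. Each promoter runs from 250 bases before to 50 bases after the RefSeq gene start (GRCh38.p14, 5′ to 3′ on the gene's strand). Capitals mark matches to GABP (CCGGAAG) in COX5B and to YY1 (AAGATGG, here on the opposite strand) in COX7C. COX7B lies at chrX:77899218-77899517 on the plus strand, COX7C at chr5:86617691-86617990 on the plus strand, COX5A at chr15:74938024-74938323 on the minus strand and COX5B at chr2:97645812-97646111 on the plus strand.
COX7B: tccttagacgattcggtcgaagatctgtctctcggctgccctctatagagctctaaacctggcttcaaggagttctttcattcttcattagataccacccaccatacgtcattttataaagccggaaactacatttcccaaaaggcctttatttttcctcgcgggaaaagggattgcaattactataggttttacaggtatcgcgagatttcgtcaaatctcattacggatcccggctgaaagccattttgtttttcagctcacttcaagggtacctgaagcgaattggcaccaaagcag
COX7C: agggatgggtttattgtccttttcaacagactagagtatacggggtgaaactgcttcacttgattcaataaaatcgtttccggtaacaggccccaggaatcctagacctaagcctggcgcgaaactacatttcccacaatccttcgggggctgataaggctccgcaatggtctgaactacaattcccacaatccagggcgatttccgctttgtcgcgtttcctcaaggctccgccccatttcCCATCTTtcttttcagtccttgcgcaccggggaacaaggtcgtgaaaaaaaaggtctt
COX5A: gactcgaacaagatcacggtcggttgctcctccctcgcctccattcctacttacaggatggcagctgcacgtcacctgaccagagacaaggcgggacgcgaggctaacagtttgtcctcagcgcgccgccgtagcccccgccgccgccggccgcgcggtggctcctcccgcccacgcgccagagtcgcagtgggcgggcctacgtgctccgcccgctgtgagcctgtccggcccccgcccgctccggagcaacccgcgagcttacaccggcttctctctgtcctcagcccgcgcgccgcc
COX5B: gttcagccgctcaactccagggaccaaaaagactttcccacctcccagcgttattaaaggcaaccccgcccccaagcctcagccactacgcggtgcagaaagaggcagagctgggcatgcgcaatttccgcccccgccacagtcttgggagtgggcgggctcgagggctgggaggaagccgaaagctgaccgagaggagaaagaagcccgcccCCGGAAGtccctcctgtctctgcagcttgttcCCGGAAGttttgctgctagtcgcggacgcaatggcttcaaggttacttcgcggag

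Of the 43 nuclear members, 34 had a promoter in the RefSeq table. SDHC, CYC1, UQCRB, UQCRHL, COX6C, ATP5F1B, ATP5F1D, ATP5MC3 and ATP5MF had none there. Searched on both strands, the GABP letters were in 15 of 34 member promoters (44.1%) and in 10.7% of 27305 promoters, the YY1 letters in 9 of 34 (26.5%) and 6.06%, and the NRF1 letters (GCGCA, any base, GCGC) in 10 of 34 (29.4%) and 6.28%. A YY1 match can share its first letters with the end of a GABP match. By complex, the NRF1 letters were in 2 of 3 promoters of complex II, 4 of 7 of complex III, 0 of 10 of complex IV and 4 of 14 of complex V, while the GABP letters were in 5 of 10 of complex IV. COX7B and COX5A had none of these letters in this window. Only these letters were searched for, so sites spelled otherwise were not counted. These matches describe the sequence and say nothing of binding in these tumours.

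Complex II, the only one of these enzymes that also belongs to the citric acid cycle, had 1 member with separated genotypes. SDHC, which with SDHD anchors the enzyme in the membrane and holds its haem and ubiquinone site, was at 24.8, 20.5, 19.6 and 26.8 CPM in CDK4KO and 29.9, 29.4, 28.01 and 28.1 CPM in CDK4WT (-0.33 ± 0.10, edgeR adjusted p = 0.224). As for COX7B, replicates 2 and 3 were the lowest. SDHD, its partner in the membrane, was at 59.7, 58.5, 50.4 and 58.4 CPM in CDK4KO and 59.1, 54.6, 59.8 and 57.7 CPM in CDK4WT (-0.03 ± 0.07). SDHB, the iron-sulphur subunit, averaged 41.5 ± 5.38 CPM in CDK4KO and 43.6 ± 2.28 CPM in CDK4WT (-0.07 ± 0.09). SDHA, the flavoprotein that oxidises succinate, averaged 10.96 ± 0.731 CPM in CDK4KO and 10.4 ± 0.804 CPM in CDK4WT (0.07 ± 0.09). The 4 subunits thus did not share a direction, and their sum was 132 ± 11.5 CPM in CDK4KO and 141 ± 1.13 CPM in CDK4WT (SD, n = 4 each; -6.06%), with overlap. SDHC shares exon positions with CFAP126 in GENCODE 29, and whether the counting used strand is not given in the sources used here.

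Complex III had 0 members at an unadjusted p under 0.05, although 9 of its 10 nuclear members had a fold change below 0 (median -0.10). UQCRQ, a small subunit bound to cytochrome b, came nearest, at 49.4, 47.1, 50.8 and 59.3 CPM in CDK4KO and 59.3, 57.7, 55.5 and 58.8 CPM in CDK4WT (-0.16 ± 0.07, edgeR adjusted p = 0.389). Here 3 CDK4KO tumours lay below all CDK4WT tumours and replicate 4 did not. UQCRH, the hinge protein beside cytochrome c1, averaged 66.1 ± 6.99 CPM in CDK4KO and 74.3 ± 6.76 CPM in CDK4WT (-0.17 ± 0.09), and its near-identical copy UQCRHL 3.51 ± 0.752 CPM in CDK4KO and 4.06 ± 0.533 CPM in CDK4WT (-0.21 ± 0.18). Reads of these 2 genes could be split between them in counting, so each value is uncertain. CYC1, cytochrome c1 itself, averaged 122 ± 7.996 CPM in CDK4KO and 132 ± 5.74 CPM in CDK4WT (-0.11 ± 0.06), and UQCRC1, a core protein on the matrix side, 129 ± 6.75 CPM in CDK4KO and 138 ± 8.21 CPM in CDK4WT (-0.11 ± 0.06). The nuclear sum was 617, 628, 624 and 673 CPM in CDK4KO and 661, 687, 667 and 702 CPM in CDK4WT (-6.48%). CDK4KO replicates 1 to 3 lay below all CDK4WT tumours and replicate 4 within their range.

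Complex V, the ATP synthase, showed the least difference among the nuclear sets in summed CPM. ATP5F1A and ATP5F1B, with fold changes near 0, make up much of that sum, and the median of complex II (-0.05) was close to that of complex V. Of its 18 nuclear members 12 had a fold change below 0 (median -0.04), 0 had an unadjusted p under 0.05, and the nuclear sum was 1783 ± 51.1 CPM in CDK4KO and 1806 ± 39.8 CPM in CDK4WT (SD, n = 4 each; -1.28%). In the catalytic F1 head, ATP5F1B (beta) was at 437, 498, 472 and 511 CPM in CDK4KO and 468, 475, 476 and 487 CPM in CDK4WT (0.01 ± 0.06), and ATP5F1A (alpha) averaged 331 ± 31.4 CPM in CDK4KO and 324 ± 17.9 CPM in CDK4WT (0.03 ± 0.08). ATP5F1C, the gamma shaft that turns inside the head, averaged 128 ± 8.98 CPM in CDK4KO and 138 ± 4.30 CPM in CDK4WT (-0.11 ± 0.06, edgeR adjusted p = 0.499), the smallest p of the nuclear members of complex V. The genotypes overlapped for all 3.

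The ring-forming c subunit of complex V is encoded by 3 genes whose mature proteins are identical, so they can be read as isoforms of 1 protein. ATP5MC3 averaged 85.4 ± 3.96 CPM in CDK4KO and 91.0 ± 2.47 CPM in CDK4WT (-0.09 ± 0.05). ATP5MC1 averaged 33.0 ± 5.12 CPM in CDK4KO and 34.2 ± 1.72 CPM in CDK4WT (-0.05 ± 0.10), and ATP5MC2 105 ± 9.86 CPM in CDK4KO and 100.1 ± 4.86 CPM in CDK4WT (0.07 ± 0.07). The genotypes overlapped for all 3. In the stalk, ATP5PF (F6) averaged 40.5 ± 4.45 CPM in CDK4KO and 44.5 ± 1.96 CPM in CDK4WT (-0.14 ± 0.08), and ATP5PO (OSCP), which couples the stalk to the head, 10.6 ± 2.15 CPM in CDK4KO and 10.1 ± 0.801 CPM in CDK4WT (0.07 ± 0.14). ATP5PO turned to -0.06 without CDK4KO replicate 1. Its annotated exons share 655 bases with other annotated genes on the same strand, so its count may depend on how such reads were treated. Of the subunits that hold synthase dimers together, ATP5MG (g) averaged 25.9 ± 1.75 CPM in CDK4KO and 23.9 ± 1.48 CPM in CDK4WT (0.12 ± 0.08), the highest fold change of the nuclear members, and ATP5ME (e) 18.5 ± 3.79 CPM in CDK4KO and 21.1 ± 1.23 CPM in CDK4WT (-0.19 ± 0.13). The annotated exons of ATP5ME overlap those of MYL5. ATP5IF1, the inhibitor that stops the enzyme from running backwards, averaged 53.0 ± 6.40 CPM in CDK4KO and 53.6 ± 1.37 CPM in CDK4WT (-0.01 ± 0.08).

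The 6 mitochondrially encoded members did not share a direction. Of the 3 catalytic core subunits of complex IV, MT-CO1 averaged 10016 ± 878 CPM in CDK4KO and 9607 ± 433 CPM in CDK4WT (SD, n = 4 each; 0.06 ± 0.08), MT-CO2 3648 ± 257 CPM in CDK4KO and 3550.3 ± 178 CPM in CDK4WT (0.04 ± 0.07), and MT-CO3 4552 ± 326 CPM in CDK4KO and 4740.0 ± 149.7 CPM in CDK4WT (-0.06 ± 0.07). MT-CYB, cytochrome b of complex III, was at 2912, 2997, 2909 and 3618 CPM in CDK4KO and 3182, 2649, 2774 and 2786 CPM in CDK4WT (0.13 ± 0.09), the highest fold change of all members. MT-ATP6, the proton channel of complex V, was at 2262, 2089, 2088 and 2174 CPM in CDK4KO and 2391, 2208, 2128 and 2256 CPM in CDK4WT (-0.06 ± 0.07). The near-complete nuclear copies of mitochondrial genes MTATP6P1 and MTCO1P12 were counted as genes of their own, at 992 ± 12.04 and 126 ± 26.4 CPM in CDK4KO and 1026 ± 65.1 and 122 ± 8.41 CPM in CDK4WT, so part of the reads of MT-ATP6 and MT-CO1 may lie there.

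MT-ATP8, a short membrane subunit of complex V, had the lowest fold change of all members. It was at 65.6, 120.0, 115 and 113 CPM in CDK4KO and 171, 129, 139 and 154 CPM in CDK4WT (-0.52 ± 0.18, edgeR adjusted p = 0.278). The genotypes did not overlap, but CDK4KO replicate 1 was far below the other 3, and without that library the fold change was -0.35. MT-ATP8 and MT-ATP6 are translated from 1 bicistronic mRNA and overlap in the mitochondrial genome, which is why the sequence is shown. MT-ATP8 (chrM:8366-8572, hg38, plus strand) is 207 bases long, and its last 46 bases, in capitals, are also the first bases of MT-ATP6.
MT-ATP8: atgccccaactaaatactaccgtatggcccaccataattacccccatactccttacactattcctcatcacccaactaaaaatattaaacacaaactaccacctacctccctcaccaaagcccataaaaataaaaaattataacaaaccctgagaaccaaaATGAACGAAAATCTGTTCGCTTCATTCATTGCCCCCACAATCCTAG
Those 46 bases are 22.2% of MT-ATP8, and a read that covers them touches both genes. How the counting treated such reads is not given in the sources used here. The count of MT-ATP8 rests in part on that rule, as does that of MT-ND4L, which overlaps MT-ND4 and had 855 ± 119 CPM in CDK4KO and 1028 ± 79.3 CPM in CDK4WT (-0.27 ± 0.10, edgeR adjusted p = 0.288).

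Set side by side within each tumour, the nuclear and mitochondrial sums of complex IV differed in sign. The mitochondrially encoded sum was 18216 ± 1292 CPM in CDK4KO and 17897 ± 657 CPM in CDK4WT (1.78%), with overlap, where the nuclear sum differed by -7.65%. Per 100 CPM of mitochondrially encoded complex IV RNA, nuclear complex IV RNA was at 3.76, 3.99, 3.95 and 4.43 CPM in CDK4KO and 4.198, 4.48, 4.58 and 4.47 CPM in CDK4WT. CDK4KO replicates 1 to 3 were below all CDK4WT tumours and replicate 4 was not. For complex III the same ratio was 20.5 ± 1.32 in CDK4KO and 24.0 ± 2.27 in CDK4WT, and for complex V 79.0 ± 1.62 in CDK4KO and 75.6 ± 4.94 in CDK4WT, each with overlap. Mitochondrially encoded RNA made up 88.4, 87.6, 88.0 and 87.1% of member CPM in CDK4KO and 88.0, 86.8, 86.7 and 87.0% in CDK4WT, and the whole set 2.62 to 2.86% of all CPM in CDK4KO and 2.55 to 2.78% in CDK4WT. The genotypes overlapped in both shares.

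**Figure D3:**
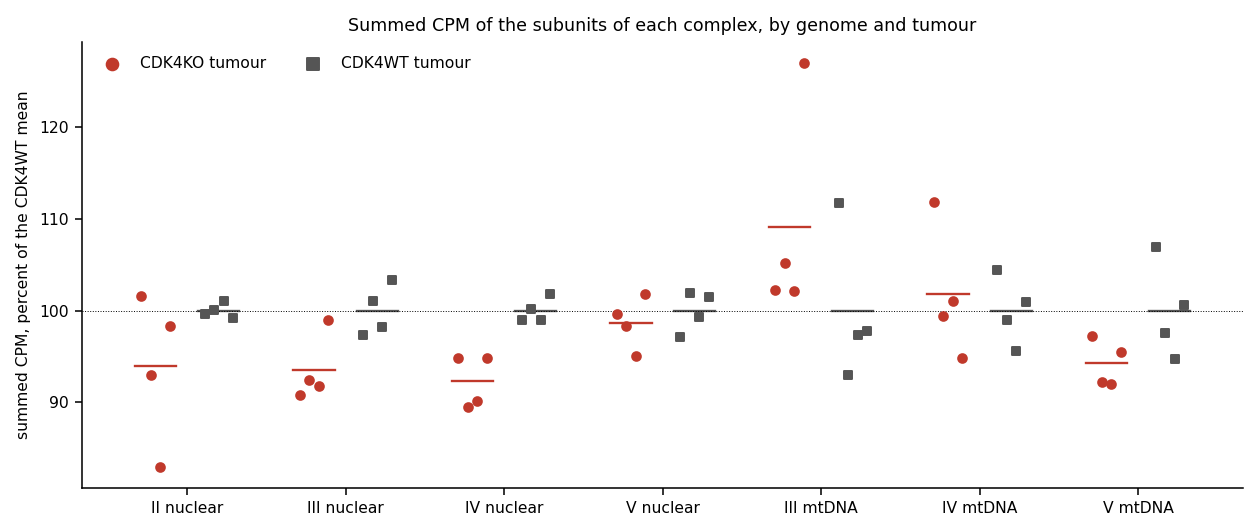
Summed CPM of the members of each complex, split by genome (x axis), in each tumour as a percent of the CDK4WT mean (y axis, not starting at 0); circles are CDK4KO tumours, squares CDK4WT tumours and lines group means (n = 4 each). Nuclear complex IV is the set in which the genotypes do not overlap (732 CPM in CDK4KO and 792 CPM in CDK4WT on average), and MT-CYB, the only mitochondrial member of complex III, reaches 3618 CPM in CDK4KO replicate 4.

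Contrasts between complexes within the same tumour need no scaling between libraries. Per 100 nuclear CPM of complex V, nuclear complex IV was at 41.8, 39.9, 41.6 and 40.9 CPM in CDK4KO and 44.7, 43.1, 43.7 and 44.0 CPM in CDK4WT, without overlap (-6.46%). Nuclear complex III was at 34.3, 35.4, 36.3 and 36.6 CPM in CDK4KO and 37.7, 37.3, 37.2 and 38.3 CPM in CDK4WT, also without overlap (-5.26%). Complex II was at 7.40 ± 0.473 CPM in CDK4KO and 7.79 ± 0.191 CPM in CDK4WT, with overlap. ATP5F1A and ATP5F1B make up much of the complex V sum. Without them in the denominator, complex IV was at 72.9 to 76.7 CPM in CDK4KO and 77.7 to 79.7 CPM in CDK4WT (-4.43%), still apart, and complex III at 61.5 to 67.96 CPM in CDK4KO and 66.6 to 69.1 CPM in CDK4WT, which overlapped.

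The tumours of 1 genotype were not alike. CDK4KO replicates 2 and 3 were each the lowest of all 8 libraries for 14 of the 43 nuclear members (32.6%), against 11.5% of all genes for replicate 2 and 12.5% for replicate 3. CDK4KO replicate 1 was the lowest for 8 (18.6%), near its 17.3% of all genes, and CDK4KO replicate 4 for 4 (9.30%), below its 19.0% of all genes. CDK4KO replicate 4 was at the same time the highest of the 8 for 14 nuclear members (32.6%), against 17.8% of all genes. The median coefficient of variation of the nuclear members was 7.72% in CDK4KO and 4.34% in CDK4WT, against 10.02% in CDK4KO and 7.18% in CDK4WT over all genes. Within CDK4KO it ran from 2.79% for ATP5F1D, the delta subunit of the central stalk, to 21.4% for UQCRHL, the nuclear member with the fewest reads. Members at an unadjusted p under 0.05 and lower in CDK4KO numbered 8 without CDK4KO replicate 1 (8.54% of all genes) and 10 without CDK4KO replicate 4 (6.81%). Without both, 17 members (9.59% of all genes) were lower at an unadjusted p under 0.05, and COX7B, SDHC and ATP5ME were called by edgeR, as were 3.3% of all genes. These libraries held the 2 highest CDK4KO values of each of these 3 genes and were left out after the values had been seen, so the lower fold changes follow from that choice and nothing is read from the calls.

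Some low nuclear members lay among genes that were lower too, and others did not. COX7B (chromosome X, 77899438 to 77907373, hg38) had 20 tested neighbours, 10 on each side, with a median log2 fold change of -0.23, of which 19 were below 0 and 10 were lower at an unadjusted p under 0.05. Around SDHC (chromosome 1, 161314257 to 161375340) the median was -0.17 with 19 of 20 below 0, around COX7C (chromosome 5, 86617904 to 86620962) -0.13 with 15 of 20, and around COX7A2L (chromosome 2, 42333546 to 42425088) -0.12 with 17 of 20. Around COX5A (chromosome 15, 74919791 to 74938168) it was -0.03 with 12 of 20. Over all genes, 48.8% were below 0 and 6.33% were lower at an unadjusted p under 0.05. Each of the 5 members was below the median of its own neighbours. Of these, COX7B, SDHC, COX7C and COX5A had been picked as low members, for which that position follows largely from the choice. COX7A2L was named here for the low median of its neighbours. Nothing is read from the position of any of them. Other low members lay among neighbours with a median near or above 0. These were UQCRHL at -0.21 (neighbours 0.03), ATP5ME at -0.19 (0.06), UQCRH at -0.17 (0.12), UQCRQ at -0.16 (-0.01) and COX7A2 at -0.15 (-0.02). Without COX7B, COX7C and COX7A2L, the complex IV members whose neighbours had a median below -0.1, the nuclear complex IV sum was 485 to 533 CPM in CDK4KO and 526 to 544 CPM in CDK4WT (-4.59%), and the genotypes overlapped. The part of chromosomal position in these differences was not tested.

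**Figure D4:**
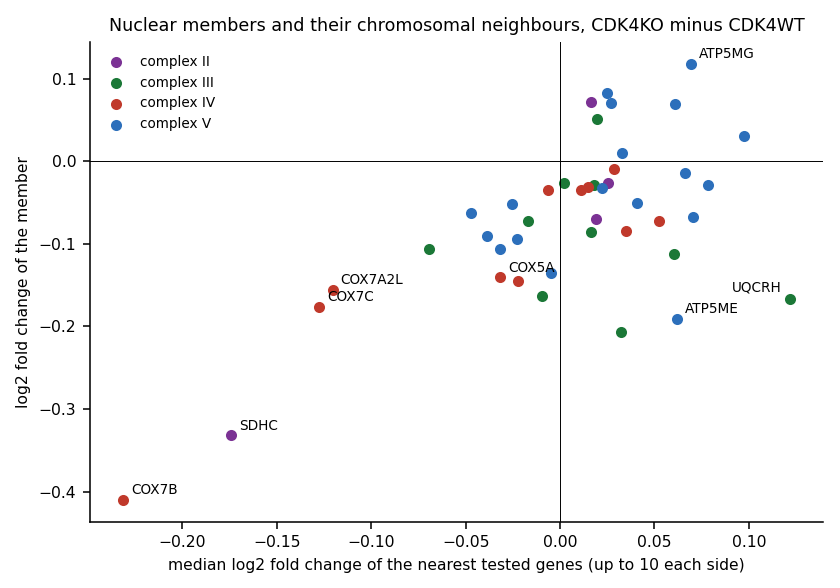
Log2 fold change, CDK4KO minus CDK4WT, of each of the 43 nuclear members (y axis) against the median log2 fold change of its nearest tested genes, up to 10 on each side (x axis); points are genes coloured by complex. COX7B, SDHC, COX7C and COX7A2L lie at the lower left, with neighbour medians of -0.23 to -0.12, and UQCRH lies at the right, at 0.12.

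Levels between genes can be compared only per length, here as TPM, counts divided by the summed exon length in GENCODE 29 and scaled to a fixed total, averaged over all 8 libraries. The mitochondrially encoded members were the most abundant, at 25382 TPM for MT-CO1, 23643 TPM for MT-CO3, 21003 TPM for MT-CO2, 12889 TPM for MT-ATP6, 10431 TPM for MT-CYB and 2431 TPM for MT-ATP8. All 6 were above every nuclear member, with this length and with the median length of the annotated transcripts. The highest and lowest nuclear members were ATP5F1B (823 TPM) and ATP5PO (12.4 TPM) in complex V, COX6B1 (307 TPM) and COX7A2L (58.0 TPM) in complex IV, CYC1 (257 TPM) and UQCRHL (6.93 TPM) in complex III, and SDHD (80.5 TPM) and SDHA (5.09 TPM) in complex II. The low level of ATP5PO may depend on how reads over exons shared with other annotated genes were counted. The order of nuclear genes depends on the length used: SDHC was at 7.30 TPM by summed exons and 129.8 TPM by median transcript length.

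The genes that build and serve these complexes, in 7 lists, held 0 genes called over all genes by edgeR, by DESeq2 and by voom. These tests called 0.0591%, 2.33% and 2.1% of all genes. For the counts below, 48.8% of all genes had a fold change below 0. At an unadjusted p under 0.05, 6.33% of all genes were lower and 6.64% higher. Of 31 complex IV assembly factors measured (of 32), 23 had a fold change below 0 (median -0.06), with 1 lower and 1 higher at an unadjusted p under 0.05. FASTKD5, which processes the mitochondrial transcripts that carry MT-CO1 and others, averaged 23.4 ± 1.32 CPM in CDK4KO and 19.2 ± 1.89 CPM in CDK4WT (0.29 ± 0.09, edgeR adjusted p = 0.224). SMIM20, which helps MT-CO1 assemble, averaged 10.6 ± 1.32 CPM in CDK4KO and 12.6 ± 0.958 CPM in CDK4WT (-0.25 ± 0.11, edgeR adjusted p = 0.347), and COA1 81.6 ± 3.84 CPM in CDK4KO and 89.1 ± 5.10 CPM in CDK4WT (-0.13 ± 0.06). Of 4 complex II assembly factors, 3 were below 0 (median -0.19), and SDHAF4 (-0.26 ± 0.11), SDHAF3 (-0.23 ± 0.10) and SDHAF1 (-0.15 ± 0.10) had the smallest p, the first 2 under 0.05 unadjusted. The 8 complex III factors had a median of -0.02 and the 4 complex V factors measured (of 5) one of 0.06, both with 0 at an unadjusted p under 0.05. The smallest p in them belonged to BCS1L (-0.08 ± 0.09), which inserts the Rieske protein, and ATPAF1 (0.13 ± 0.09), which assembles the F1 head. Next came UQCC1 (-0.05 ± 0.06) and UQCC5 (-0.12 ± 0.15) for complex III, and TMEM242 (0.09 ± 0.15) and ATPAF2 (0.03 ± 0.07), a second F1 chaperone, for complex V.

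Of 6 genes measured (of 7) in the list of carriers and ATP exchange, 5 were below 0 (median -0.10) and 0 had an unadjusted p under 0.05. CYCS, the cytochrome c that shuttles between complexes III and IV, averaged 137 ± 4.11 CPM in CDK4KO and 151 ± 11.7 CPM in CDK4WT (-0.14 ± 0.06), and NDUFA4, now counted as a subunit of complex IV, 96.1 ± 8.14 CPM in CDK4KO and 104 ± 2.59 CPM in CDK4WT (-0.11 ± 0.06). SLC25A4, an exchanger of ADP and ATP across the inner membrane, was at -0.12 ± 0.09. Of 19 genes of mitochondrial biogenesis and mitochondrial DNA transcription, 10 were below 0 (median -0.02). At an unadjusted p under 0.05, 4 were lower and 1 higher, against 6.33% and 6.64% of all genes. LONP1, the matrix protease, was at -0.17, TFB2M, an initiation factor of mitochondrial transcription, at -0.27, and POLG2, the accessory subunit of the mitochondrial DNA polymerase, at -0.24. Of the 10 other mitochondrially encoded genes in the table, the list held 9, without MT-TS1, a transfer RNA gene (-0.14 ± 0.21). Of the 9, 8 were below 0 (median -0.12) and 1, MT-ND4L, was lower at an unadjusted p under 0.05, against 6.33% of all genes. MT-RNR1, the small ribosomal RNA of the organelle, was at -0.31 ± 0.14 and MT-ND6, a subunit of complex I, at -0.19 ± 0.10.

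Genes of the hypoxia response were also lower in CDK4KO: 22 of 25 had an unadjusted p under 0.05, all lower, against 6.33% of all genes, and their mean log2 CPM was 6.89 to 7.23 in CDK4KO and 7.35 to 7.84 in CDK4WT, without overlap. Their 3 smallest p belonged to PFKFB4 (-0.77 ± 0.13, edgeR adjusted p = 0.0634), PFKFB3 (-0.76 ± 0.13, edgeR adjusted p = 0.0634) and CA9 (-1.26 ± 0.21, edgeR adjusted p = 0.0648). With p-values adjusted over all genes, edgeR called 0 of the 25, DESeq2 15 and voom 10, against 0.0591%, 2.33% and 2.1% of all genes. In the marker lists, endothelium (4 of 5 measured) stood at 20.4 to 26.1 CPM in CDK4KO and 20.4 to 21.8 CPM in CDK4WT, fibroblasts (4 of 5) at 682 to 1178 CPM in CDK4KO and 775 to 1192 CPM in CDK4WT, macrophages and blood (4 of 6) at 19.0 to 20.3 CPM in CDK4KO and 15.2 to 26.7 CPM in CDK4WT, and fat (1 of 5) at 0.723 to 1.26 CPM in CDK4KO and 1.18 to 2.58 CPM in CDK4WT. The fat marker, PLIN1, was lower in CDK4KO at an unadjusted p under 0.05 (-0.91 ± 0.29, edgeR adjusted p = 0.233). In the other direction, the endothelial marker PECAM1 was higher in CDK4KO at an unadjusted p under 0.05 (0.34 ± 0.13, edgeR adjusted p = 0.315). The remaining markers, among them CDH5, DCN, CD68 and all 4 of the erythroid list, are not analysed here. The part of hypoxia and of host cells in the members' differences was not tested.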

How the data were processed

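RNA was extracted from tumours with Trizol and made into mRNA libraries from 500 ng of total RNA, per the labels' protocols. The authors deposited raw read counts per Ensembl gene, not normalized; the submitters' processing notes name cutadapt, STAR 2.7.11a, featureCounts 2.0.4, DESeq2 1.46.0 and hg38. Which annotation was counted, whether strand was used and how mouse reads were handled is not given in the sources used here. Mouse reads may therefore be counted for conserved genes. Depth was 27840883 to 33617977 counts per library, at which spread between tumours sets the error of most members. CDK4KO columns were matched to replicates 1 to 4 through the library names.

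Symbols were found for 13524 of 13546 identifiers and GENCODE 29 (hg38) positions for 13455. The comparison used edgeR 4.0.16 in R 4.3.3 (filterByExpr, which removed 0 genes, TMM scaling and the robust quasi-likelihood test) and Benjamini-Hochberg adjustment over all genes at 0.05. The biological coefficient of variation common to all genes was 11.7%. Each fold change is log2, CDK4KO minus CDK4WT, ± SE (the one implied by the F statistic). CPM are TMM-scaled, with a prior count of 2 on the log2 scale. Sums, ratios and TPM are descriptions without a test. Motifs were searched in RefSeq promoters with Python 3.11.15 and pandas 2.3.3. Alternatives were DESeq2 1.42.0, voom with library quality weights (limma 3.58.1), other scalings and filters, the replicate number as a block, and each library left out. Leaving out CDK4KO replicates 1 and 4 together, the ratios to complex V and the sums without chosen members were added after seeing the data. Steps were tested on simulated data.

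Values are given for the mitochondrially encoded members, the 4 nuclear members with the smallest p and the highest and lowest per length in each complex, members with separated genotypes, isoforms, ATP5IF1, CDK4 and the 3 smallest p of each related list. COX5B, ATP5F1A, ATP5ME and ATP5F1D were added once their values were known. Members and lists were chosen with earlier results of these data known.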

Additional observations from a re-analysis of the deposited data

Results flagged for a closer look

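Of 118 sets of 4 values (each member and each sum in each genotype), 8 held a tumour far from the other 3 by Dixon's criterion, which chance meets in about 1 in 20 sets. The mitochondrial sum of complex III is MT-CYB alone and is not counted again among the 8. Sums contain their members, so the sets are not independent. In CDK4KO, replicate 3 had 50.4 CPM of SDHD (other tumours 58.4 to 59.7 CPM), replicate 4 had 3618 CPM of MT-CYB (2909 to 2997 CPM), and replicate 1 had 65.6 CPM of MT-ATP8 (113 to 120.0 CPM). CDK4KO replicate 1 also had the summed CPM farthest from its group, 25259 CPM for the mitochondrially encoded members (22873 to 23192 CPM) and 28571 CPM for all members (26248 to 26363 CPM). In CDK4WT, replicate 3 had 54.6 CPM of COX7B (56.6 to 56.8 CPM), replicate 4 had 94.6 CPM of ATP5MC3 (89.2 to 90.1 CPM), and replicate 1 had 19.3 CPM of ATP5ME (21.6 to 21.9 CPM).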

How the results depend on the processing

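The number of genes called over the whole table depended on the method: 8 in the main test, 14 with library size alone, 315 with DESeq2, 285 with voom quality weights, 13 with the replicate block, 447 without CDK4KO replicates 1 and 4 together, and 0 to 183 with each library left out. At an unadjusted p under 0.05 there were 1758 genes, against 2714 without CDK4KO replicates 1 and 4 and 2824 with voom. Members called over all genes were 0 in the main test, 1 with DESeq2, 2 with voom and 3 without CDK4KO replicates 1 and 4. Members lower at an unadjusted p under 0.05 were 5, against 4 to 10 with each library left out, 12 with voom (10.2% of all genes, against 6.33% in the main test) and 17 without CDK4KO replicates 1 and 4 (9.59% of all genes).

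Those 2 libraries held the highest CDK4KO values of several members and were chosen after the values had been seen, so nothing is read from the larger differences without them. Without those 2 libraries, median log2 fold changes were -0.14 (complex II), -0.13 (nuclear complex IV), -0.12 (nuclear complex V) and -0.11 (all members), and summed CPM differed by -12.1% in complex II and -10.2% in nuclear complex IV. The median of -0.103 for carriers and ATP exchange was -0.0326 there, -0.0478 with voom and -0.133 to -0.0600 with each library left out. Of 543 alternative values of the named members, 527 gave the same direction and call, 5 gained a call and 11 changed sign. ATP5PO was at -0.14 without CDK4KO replicates 1 and 4, at -0.0516 with voom and at -0.0602 to 0.178 with each library left out, where ATP5F1B ran from -0.0223 to 0.0499, ATP5IF1 from -0.0669 to 0.0490, SDHB from -0.152 to 0.00156, SDHD from -0.0532 to 0.0259, COX4I1 from -0.0562 to 0.00307 and MT-CO1 from -0.00169 to 0.0929. The cause was not tested.

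Deviations of libraries with the same number had correlations of -0.03, -0.01, 0.0035 and 0.19. Those of libraries with different numbers ran from -0.20 to 0.20. The main test used no pairing, and these correlations cannot exclude one. With the replicate number as a block, 0 members were called and 5 were lower at an unadjusted p under 0.05. The nuclear complex IV sum had no overlap under any scaling tried.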
